A study of Mus musculus with 96 samples.

Results

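Receptor tyrosine kinases of the Pdgf, Fgf and Hgf families were followed together with their ligands through serum stimulation of mouse fibroblasts. The 9 genes were chosen by symbol from the 15895 genes of the table: 5 receptors (Pdgfra, Pdgfrb, Fgfr1, Fgfr2 and Met) and 4 ligands (Pdgfa, Fgf2, Fgf7 and Hgf). Primary CF-1 mouse embryonic fibroblasts (MEFs, E13 embryos) were kept for 36 h in 0.5% fetal calf serum, and serum was raised to 20% at time 0. Cycle 1 has 63 libraries here, the last taken at 38 h, and Cycle 2 has 32, the last taken at 27 h. The starved group is made of the -1 h and 0 h libraries of each Cycle, 4 in all, and every other library is named by its Cycle and its hours after serum. No gene was altered in any group, and the same medium supplements were shared by all of them.

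Each of these receptors is a single-pass membrane kinase that dimerizes when its ligand binds and then signals through Ras and Erk, PI3 kinase and phospholipase C gamma. Platelet-derived growth factor is a classical serum mitogen for fibroblasts, and Pdgfra and Pdgfrb are its receptors. Fgfr1 and Fgfr2 are bound by fibroblast growth factors together with heparan sulfate. Mesenchymal cells are a known source of Fgf7, also called keratinocyte growth factor, and of Hgf, the ligand of Met, which both act on neighbouring epithelia.

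The value used throughout is the normalized signal of the deposited table, in which every library is scaled to nearly the same total. Reads recovered from the values ranged from 4345249 to 12533623 per library, with a median of 9387717. All 8 fibroblast markers were detected in every library, but their summed level went from 339590 to 510858 in the starved libraries to 165571 to 194999 at 19 to 23.5 h. The matrix genes Lum, Dcn and Col3a1 had starved medians of 11616, 16853 and 129550 and lowest values of 427, 1324 and 8902. Col1a1 and Col1a2 also went from starved medians of 101680 and 131513 to 60055 and 54463 over all libraries. Vim, Thy1 and S100a4 went the other way, with starved medians of 28561, 3288 and 1763 against 47763, 4962 and 5931 over all libraries. Markers of other cell types were mostly low but not absent. The liver marker Alb had a median of 0.813 and was 0 in 39 of 95 libraries, and the epithelial markers Epcam, Krt8 and Krt18 had medians of 5.60, 31.2 and 106. The macrophage genes Cd68 and Csf1r had medians of 96.0 and 105, the endothelial gene Kdr of 72.1 and the muscle gene Des of 815. The part of these genes in the members' changes was not tested. Some libraries went against their labels or stood apart. Fos, an immediate early serum gene, was at 914 and 466 at -1 h but at 24883 and 15149 at 0 h in Cycle 1 and Cycle 2, although the 0 h libraries are labelled as taken before serum. In the 27 h library of Cycle 2 and the 34 to 38 h libraries of Cycle 1 Fos was at 13.7 and at 9.97 to 36.8. The 24.5 h library of Cycle 1 differed most from its neighbours. With the -1 h libraries alone as baseline, 36 of the 48 hour calls of members described below were made, and 47 were made without the 27 h hour. Leaving out the 24.5 h library moved the Cycle 1 medians of 24 to 27 h most, in proportion, for Hgf, from 21.0 to 29.3. The values at 34 to 38 h rest wholly on libraries in which Fos was low. The 33 h library of Cycle 1, at 22.9, was already within their Fos range. Egr1 was lower in all 5 of them, at 66.4 to 247 against 452 to 918 in the 6 libraries before. Over 9112 genes the step from 33 to 34 h was not among the largest, with a median size of 0.1485 in log2 and rank 22 in Cycle 1.

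The start regions of members that passed the test below are shown first, because the members that rose and those that fell can then be compared by sequence. RefSeq start sites (GRCm38.p6) were used for 7 of the 9 members, and none was used for Fgfr1 and Pdgfrb. Entries on the chromosome of Pdgfrb were left out before this count. The 250 bases before the most upstream start are given 5′ to 3′ in lower case, with matches on either strand to 4 motifs in capitals. The first motif is the AP-1 site of Fos and Jun proteins, searched as TGANTCA. The next is the GC box, to which Sp1 is known to bind, searched as GGGCGG. The others are the TATA box of core promoters, searched as TATAAA, and the CArG box of serum response factor. Met and Fgf2 and Pdgfra lie on the plus strand (chr6:17463707-17463956, chr3:37348403-37348652 and chr5:75152001-75152250), and Pdgfa and Fgfr2 on the minus strand (chr5:138994945-138995194 and chr7:130266809-130267058).
Met: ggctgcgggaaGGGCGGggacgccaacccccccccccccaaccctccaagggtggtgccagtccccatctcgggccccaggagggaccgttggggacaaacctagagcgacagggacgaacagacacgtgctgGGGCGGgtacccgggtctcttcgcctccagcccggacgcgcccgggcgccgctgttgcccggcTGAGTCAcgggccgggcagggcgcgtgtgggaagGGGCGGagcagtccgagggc
Pdgfa: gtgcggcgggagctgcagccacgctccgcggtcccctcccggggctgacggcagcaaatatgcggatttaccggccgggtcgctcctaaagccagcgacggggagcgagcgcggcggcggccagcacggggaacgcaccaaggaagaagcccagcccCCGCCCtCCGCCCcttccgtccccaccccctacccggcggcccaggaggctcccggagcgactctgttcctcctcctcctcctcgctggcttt
Fgf2: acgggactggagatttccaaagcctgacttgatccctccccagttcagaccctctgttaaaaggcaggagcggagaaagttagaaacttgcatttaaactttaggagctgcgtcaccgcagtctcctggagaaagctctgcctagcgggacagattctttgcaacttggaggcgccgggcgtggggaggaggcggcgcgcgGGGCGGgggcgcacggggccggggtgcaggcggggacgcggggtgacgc
Pdgfra: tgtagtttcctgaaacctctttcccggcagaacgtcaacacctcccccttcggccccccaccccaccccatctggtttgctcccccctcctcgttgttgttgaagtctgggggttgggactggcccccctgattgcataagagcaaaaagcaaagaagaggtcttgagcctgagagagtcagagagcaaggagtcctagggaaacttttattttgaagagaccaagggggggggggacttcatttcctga
Fgfr2: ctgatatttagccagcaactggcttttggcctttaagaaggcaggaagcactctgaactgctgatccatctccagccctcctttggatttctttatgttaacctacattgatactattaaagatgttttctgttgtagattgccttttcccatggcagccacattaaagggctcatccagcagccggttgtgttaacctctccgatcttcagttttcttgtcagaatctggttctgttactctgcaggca

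The GC box was found 3 times before Met, 2 times before Pdgfa and 1 time before Fgf2, which rose. Fgfr1 also rose but had no window. The box was not found in the window of Pdgfra or Fgfr2, which fell, nor in that of Fgf7 or Hgf, which did not pass the test. Of 32851 mouse start regions of the same length, 32.7% held it. The AP-1 letters were found 1 time, before Met, against 6.75% of all regions. No member's window held the TATA or the CArG letters, which 12.4% and 1.47% of all regions held. No 2 matches overlapped. The GC content of the windows followed the same division, at 74.0% for Met, 72.4% for Pdgfa and 62.4% for Fgf2 against 54.4% for Pdgfra, 44.0% for Fgfr2, 43.6% for Fgf7 and 50.8% for Hgf, with a median of 52.4% over all regions. These matches describe letters in the windows and say nothing of binding.

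To ask which members changed after serum, the 29 hours that both Cycles sampled were compared with the 4 starved libraries (limma F test on log2 of the value plus 1, p-values adjusted over all genes, and a mean log2 change beyond 1 at 1 or more hours). Of the 9 members, 6 passed, against 46.3% of all genes. Fgfr1, Met, Pdgfa and Fgf2 were highest above the starved level at their hour of largest change (4 of 9, against 14.0% of all genes). Pdgfra and Fgfr2 were lowest below it (2 of 9, against 32.4%). The median of the largest log2 change was -0.92 over the members and -0.88 over all genes. Pdgfrb, Fgf7 and Hgf did not pass.

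**Figure D1:**
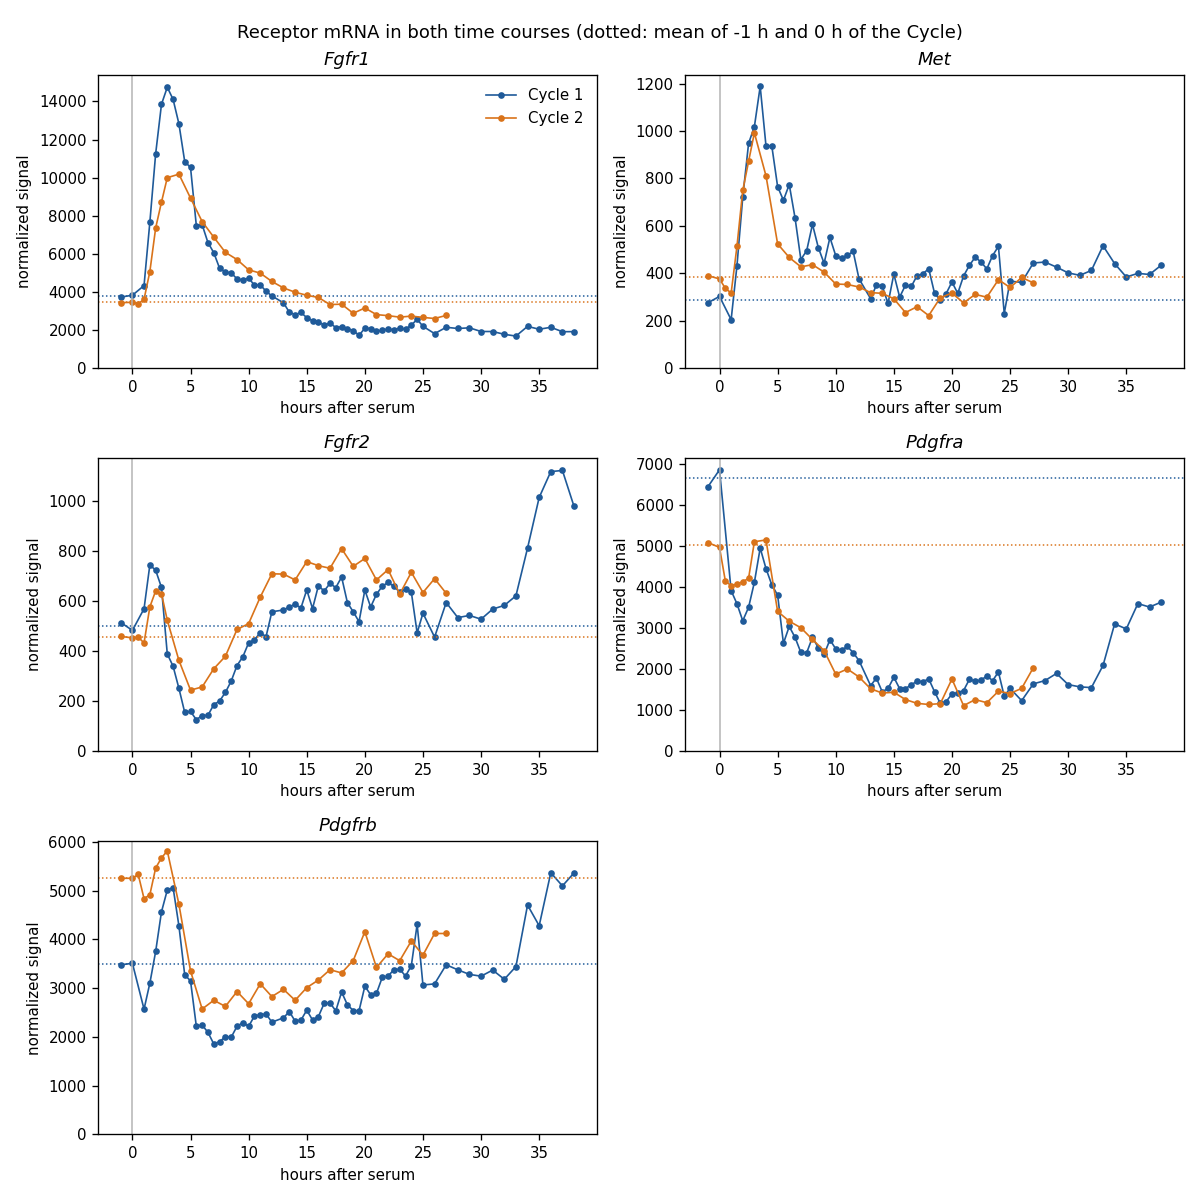
Normalized signal of the 5 receptor mRNAs (y axis, linear, from 0) against hours after serum (x axis) in Cycle 1 (63 libraries) and Cycle 2 (32 libraries), each point 1 library and each dotted line the mean of the -1 h and 0 h libraries of that Cycle. Fgfr1 peaked at 14748 in Cycle 1 and 10180 in Cycle 2, Fgfr2 was lowest at 125 and 243, and Pdgfra was lowest at 1163 and 1109.

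Fgfr1, the main Fgf receptor of mesenchymal cells, lies on chromosome 8 (mm9, its longest annotated coding transcript from 26629264 to 26686186). Its starved values were 3719 and 3818 in Cycle 1 and 3425 and 3446 in Cycle 2. The peak was 14748 at 3 h in Cycle 1 and 10180 at 4 h in Cycle 2. All libraries from 2 to 6.5 h lay between 6584 and 14748, above every starved library. The mean log2 change at 3 h was 1.75 ± 0.25 (SE; limma, adjusted p = 1.74e-06), and 6 hours from 2 to 6 h passed as higher. The level then ran below the starved one, with a median of 2012 in 10 libraries of Cycle 1 and 2798 in 5 of Cycle 2 between 19 and 23.5 h, but none of the 29 hours passed as lower.

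Met, the Hgf receptor, lies on chromosome 6 (mm9, 17413800 to 17523980). It was at 275 and 302 in the starved libraries of Cycle 1 and at 389 and 376 in those of Cycle 2. The peak of Met was 1189 at 3.5 h in Cycle 1 and 993 at 3 h in Cycle 2. The 7 libraries from 2 to 3.5 h held 721 to 1189 and did not overlap the starved ones. The mean log2 change at 3 h was 1.60 ± 0.25 (SE; limma, adjusted p = 5.73e-06), and the 4 hours from 2 to 4 h passed as higher. At 18 h the level was 419 in Cycle 1, above the starved libraries, and 221 in Cycle 2, below them.

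Fgfr2, a second Fgf receptor that is best known from epithelia, lies on chromosome 7 (mm9, 137306026 to 137409759). The starved values of Fgfr2 were 513 and 482 in Cycle 1 and 458 and 452 in Cycle 2. Before its fall it stood at 743 at 1.5 h in Cycle 1 and at 640 at 2 h in Cycle 2, hours that did not pass as higher. It then dropped to 125 at 5.5 h in Cycle 1 and to 243 at 5 h in Cycle 2. The 9 libraries from 4 to 6.5 h held 125 to 362, all below the starved ones. At 6 h the mean log2 change was -1.32 ± 0.23 (SE; limma, adjusted p = 3.97e-05), and 5 h and 6 h were the hours that passed as lower. From 15 to 18.5 h the 12 libraries of both Cycles lay between 569 and 808, above every starved library, and no hour in that window passed as higher. The fall of Fgfr2 thus came while Fgfr1 was high, at 7472 in the Cycle 1 library where Fgfr2 was lowest.

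Pdgfra, the receptor for Pdgf A and C chains, lies on chromosome 5 (mm9, 75552191 to 75594229). It was at 6452 and 6868 in the starved libraries of Cycle 1 and at 5091 and 4973 in those of Cycle 2. In Cycle 1 the value fell to 3182 at 2 h, came back to 4957 at 3.5 h and fell again to 1163 at 19 h. In Cycle 2 it was 4036 at 1 h, 5155 at 4 h and 1109 at 21 h. Every library from 7 to 27 h was at 3011 or less, below all 4 starved ones. The mean log2 change at 19 h was -2.32 ± 0.20 (SE; limma, adjusted p = 1.22e-10), and all 21 shared hours from 7 to 27 h passed as lower. Of the 9 members, Pdgfra was changed at the most hours.

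Pdgfrb, the receptor for the Pdgf B chain and a pericyte marker, lies on chromosome 18. Its starved values differed between the Cycles, at 3479 and 3510 in Cycle 1 and 5255 and 5257 in Cycle 2. It was at 5065 at 3.5 h in Cycle 1 and 5819 at 3 h in Cycle 2, and then at its lowest, 1855 at 7 h in Cycle 1 and 2572 at 6 h in Cycle 2. At 27 h it was at 3480 in Cycle 1, near its starved level, and at 4122 in Cycle 2, below it. The F test gave an adjusted p of 0.00136 in limma, but the largest mean log2 change was -0.92 ± 0.24 (SE) at 7 h, short of the required size. Without either starved library of Cycle 1 it was -1.02 and passed.

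The receptors changed order per length of transcript. In the starved libraries the signal per kb was 890 for Pdgfra (757 to 1045), 807 for Pdgfrb (642 to 969) and 722 for Fgfr1 (687 to 765), ranges that overlapped. Fgfr2 at 113 (107 to 122) and Met at 49.3 (40.4 to 57.2) followed, apart from each other and from the first 3. Between 2 and 3.5 h Fgfr1 led with a median of 2256 per kb and a lowest library of 1473, above the highest Pdgfrb library of 1073. From 19 to 23.5 h Pdgfrb led with a median of 599, before Fgfr1 with 415 and Pdgfra with 217. The ratio of Pdgfra to Pdgfrb per kb was 1.53 and 1.61 in the starved libraries of Cycle 1 and 0.378 to 0.448 at 19 to 23.5 h. In Cycle 2 that ratio was 0.781 and 0.800 in the starved libraries and 0.267 to 0.349 at the same hours, so the drop was shared while the starting order was not. Lengths are those of the longest annotated coding transcript, which need not be the model the reads were counted on.

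**Figure D2:**
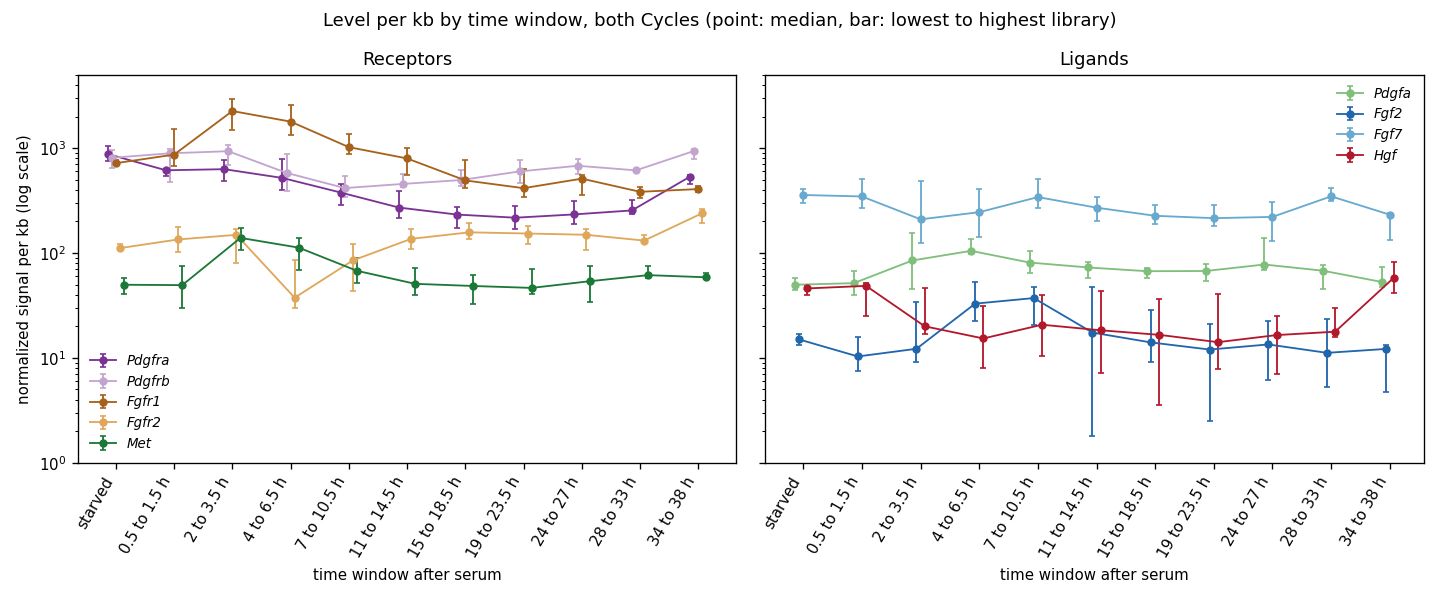
Normalized signal per kb of the longest coding transcript (y axis, log scale) in 11 time windows (x axis) for the receptors and the ligands, points being medians over the libraries of both Cycles and bars running from the lowest to the highest library. Fgfr1 reached a median of 2256 per kb at 2 to 3.5 h, and Pdgfrb led at 19 to 23.5 h with 599.

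**Figure D3:**
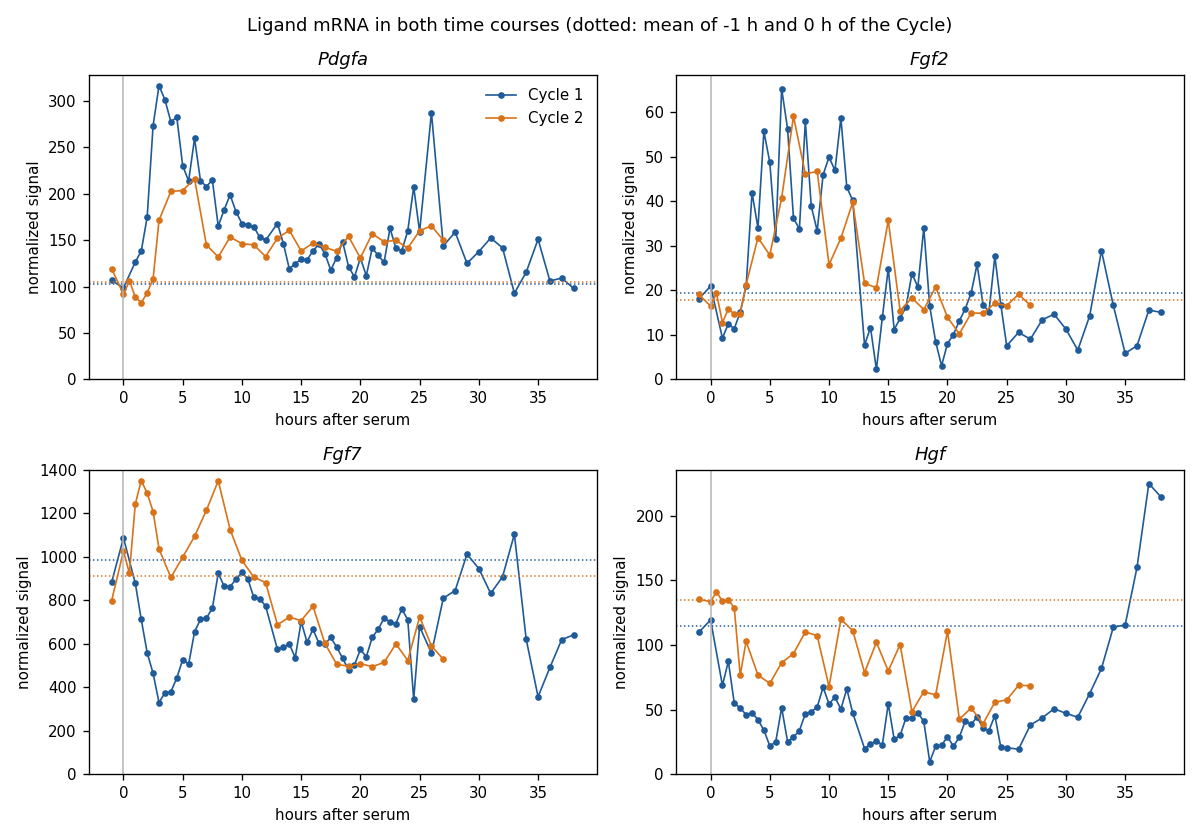
Normalized signal of the 4 ligand mRNAs (y axis, linear, from 0) against hours after serum (x axis), drawn as for the receptors. Fgf7 in the first hours went down to 330 in Cycle 1 and up to 1350 in Cycle 2, whereas Pdgfa and Fgf2 went up in both.

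Pdgfa encodes the Pdgf A chain, a ligand of Pdgfra, and lies on chromosome 5 (mm9, 139451968 to 139470991). Its starved values were 107 and 98.5 in Cycle 1 and 119 and 91.5 in Cycle 2. The highest value was 316 at 3 h in Cycle 1 and 216 at 6 h in Cycle 2. The 9 libraries from 4 to 6.5 h held 202 to 282, all above the starved ones. At 4 h the mean log2 change was 1.19 ± 0.27 (SE; limma, adjusted p = 0.000765), and 5 hours passed as higher, the 4 from 3 to 6 h and 26 h. The 26 h value rests on 287 in Cycle 1, between 159 at 25 h and 144 at 27 h, beside 165 in Cycle 2. With the -1 h libraries alone as baseline Pdgfa no longer passed (log2 change 1.06, F test adjusted p = 0.0573 in limma).

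Fgf2, a ligand of Fgfr1 that leaves the cell without a signal peptide, lies on chromosome 3 (mm9, 37247268 to 37304299). It was scarce, at 18.0 and 21.0 in the starved libraries of Cycle 1 and 19.1 and 16.5 in those of Cycle 2, or 12 to 23 reads. The highest values were 65.2 at 6 h in Cycle 1 and 59.1 at 7 h in Cycle 2. All 21 libraries from 4 to 10.5 h lay between 25.8 and 65.2, above every starved library. The mean log2 change at 8 h was 1.43 ± 0.47 (SE; limma, adjusted p = 0.0167), and 6, 7, 8 and 11 h passed as higher. The 14 h contrast passed as lower (-1.23 ± 0.47) on 2.25 in Cycle 1, which is 2 reads, beside 20.6 in Cycle 2. With the -1 h baseline alone no single hour of Fgf2 passed, while the F test still did.

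Fgf7, whose receptor is an isoform of Fgfr2, lies on chromosome 2 (mm9, 125860394 to 125916921). It did not pass over both Cycles (F test adjusted p = 0.375 in limma; largest mean log2 change -0.95 ± 0.38 (SE) at 19 h). The starved values of Fgf7 were 882 and 1087 in Cycle 1 and 797 and 1026 in Cycle 2. From 2 to 3.5 h it was at 330 to 559 in the 4 libraries of Cycle 1 and at 1036 to 1293 in the 3 libraries of Cycle 2. These 2 sets of libraries lay on opposite sides of the starved range of their own Cycle. By 19 to 23.5 h the Cycles overlapped, with medians of 648 and 509.

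Hgf, the ligand of Met, lies on chromosome 5 (mm9, 16059368 to 16125257). Its starved values were 110 and 119 in Cycle 1 and 135 and 134 in Cycle 2. The lowest value was 9.68 at 18.5 h in Cycle 1, on 10 reads, and 39.0 at 23 h in Cycle 2, on 42 reads. From 1 to 27 h in Cycle 1 every library was at 87.4 or less, under all 4 starved libraries. In Cycle 2 the values from 0.5 to 2 h were still 129 to 141. The F test did not pass (adjusted p = 0.652 in limma), although 5 single hours between 19 and 26 h passed as lower, the largest being -1.82 ± 0.67 (SE) at 25 h (limma, adjusted p = 0.0310). The main fit has no Cycle term, so the difference in level between the Cycles counts as spread in it. With the Cycle as a block in the fit Hgf passed (limma, adjusted p = 0.000675) and was lower at 18 of 29 hours. In time windows of each Cycle alone Hgf also passed, with largest log2 changes of -2.04 in Cycle 1 and -1.23 in Cycle 2. With the -1 h baseline alone it did not pass and no hour did.

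Counted over hours, 4 members were higher at 1 or more of them (Fgfr1, Met, Pdgfa and Fgf2), against 17.1% of all genes, and 4 were lower (Pdgfra, Fgfr2, Fgf2 and Hgf), against 41.8%. The lower call of Fgf2 was lost with a pseudocount of 5, with TMM rescaling, with scaling by median ratios and in edgeR. It was also lost when either starved library of Cycle 1, or the -1 h library of Cycle 2, was left out. With the -1 h baseline the lower calls of both Fgf2 and Hgf were lost. The hours called higher lay between 2 and 11 h apart from 26 h for Pdgfa. Those called lower were 5 h and 6 h for Fgfr2, 7 to 27 h for Pdgfra and 5 hours between 19 and 26 h for Hgf, whose change at 5 h was already -1.63 ± 0.67 (SE; limma, adjusted p = 0.0532). In the starved cells Fgf7 was the most abundant ligand per kb, with a mean of 355 (298 to 407). Pdgfa at 50.5 (44.4 to 57.9) and Hgf at 45.2 (39.8 to 49.2) overlapped, and Fgf2 at 15.0 (13.3 to 16.9) was below both.

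**Figure D4:**
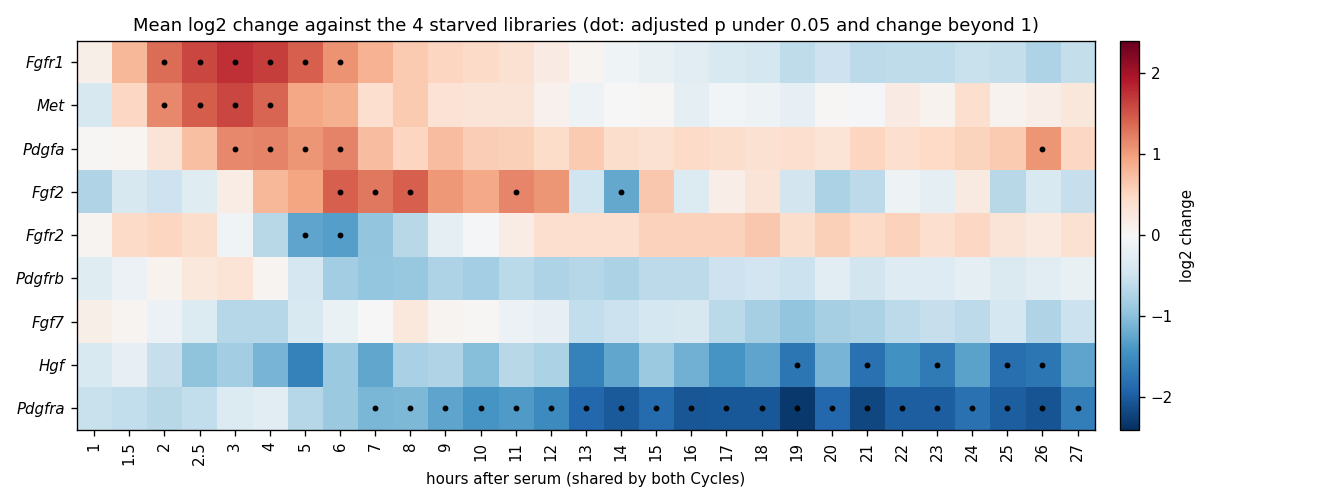
Mean log2 change against the 4 starved libraries (color) of the 9 members (rows) at the 29 hours sampled in both Cycles (columns), dots marking hours with an adjusted p under 0.05 and a change beyond 1. Fgfr1 has 6 dots between 2 and 6 h, and Pdgfra has 21, at every hour from 7 to 27 h.

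Whether the Cycles responded alike was asked with a window by Cycle interaction over the 84 libraries up to 27 h. It passed for 5 of the 9 members (Fgfr1, Fgf7, Pdgfa, Fgfr2 and Met), against 50.0% of all genes. There is 1 course per Cycle, and neighbouring hours of a course, which are not independent, stand as its replicates, so these p-values measure the spread between hours and not between courses. For Fgf7 the log2 change at 2 to 3.5 h was -1.21 in Cycle 1 and 0.38 in Cycle 2 (difference 1.58 ± 0.31, SE; limma, adjusted p of the interaction 6.37e-08). Fgfr1 at 15 to 18.5 h was at -0.71 in Cycle 1 and 0.04 in Cycle 2 (adjusted p = 1.42e-07, limma). Pdgfa at 2 to 3.5 h was at 1.33 in Cycle 1 and 0.20 in Cycle 2 (adjusted p = 3.76e-06, limma), with its highest value at 3 h and at 6 h. Fgfr2 at 4 to 6.5 h was at -1.65 and -0.68 (adjusted p = 0.0201, limma), a deeper fall in Cycle 1. Met at 4 to 6.5 h was at 1.44 and 0.61 (adjusted p = 0.0393, limma), and with the -1 h baseline alone the adjusted p for Met was 0.0757.

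The Cycles also stood apart in level. With the hours held equal, 6 members differed between Cycle 2 and Cycle 1, against 51.8% of all genes. The difference in log2 was 0.98 ± 0.10 (SE) for Hgf, 0.35 ± 0.03 for Pdgfrb, 0.29 ± 0.10 for Fgf7 and 0.24 ± 0.06 for Fgfr2, all higher in Cycle 2. Met at -0.21 ± 0.06 and Pdgfa at -0.21 ± 0.07 were lower in Cycle 2. Starved cells of Cycle 2 also held more Mki67, a proliferation marker, with a mean of 3387 against 1147, and more Acta2, a smooth muscle and myofibroblast gene, with 43071 against 14660. The 4 pericyte and smooth muscle markers together held 15193 to 44775 in the 4 starved libraries, of which Acta2 alone made 14285 to 43398. The part of these differences in the members' values was not tested, and in bulk RNA fewer cells of a kind and less RNA per cell cannot be told apart.

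In the last hours of Cycle 1, which have no second Cycle, 4 members stood higher. The 5 libraries from 34 to 38 h were all above the 6 from 28 to 33 h for Pdgfra, Pdgfrb, Fgfr2 and Hgf (4 of 9, against 11.8% of all genes). They were all below for Fgf7 (1 of 9, against 5.97%). Hgf went from a median of 48.9 (43.6 to 81.9) to 160 (114 to 225), and its highest value was above every starved library. Pdgfra went from 1672 (1550 to 2090) to 3517 (2982 to 3636), still below the starved libraries. Fgfr2 went from 554 (526 to 620) to 1013 (811 to 1120), and Pdgfrb from 3327 (3182 to 3443) to 5099 (4282 to 5370). Fgf7 went from 927 (831 to 1104) to 619 (356 to 641). These are the libraries in which Fos and Egr1 were low, Egr1 having a median of 769 before and 222 in them. Mki67 was higher there (median 4133 against 2252) and Cspg4, a pericyte gene, lower (739 against 1313). Of the other pericyte and smooth muscle markers, Myh11 overlapped between the windows (median 842 against 795). All 4 of these markers together held 71396 to 83469 against 77533 to 93875. Most of that sum was Acta2, which also overlapped (69912 to 81968 against 75366 to 91770). The part of these genes in the result was not tested.

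**Figure D5:**
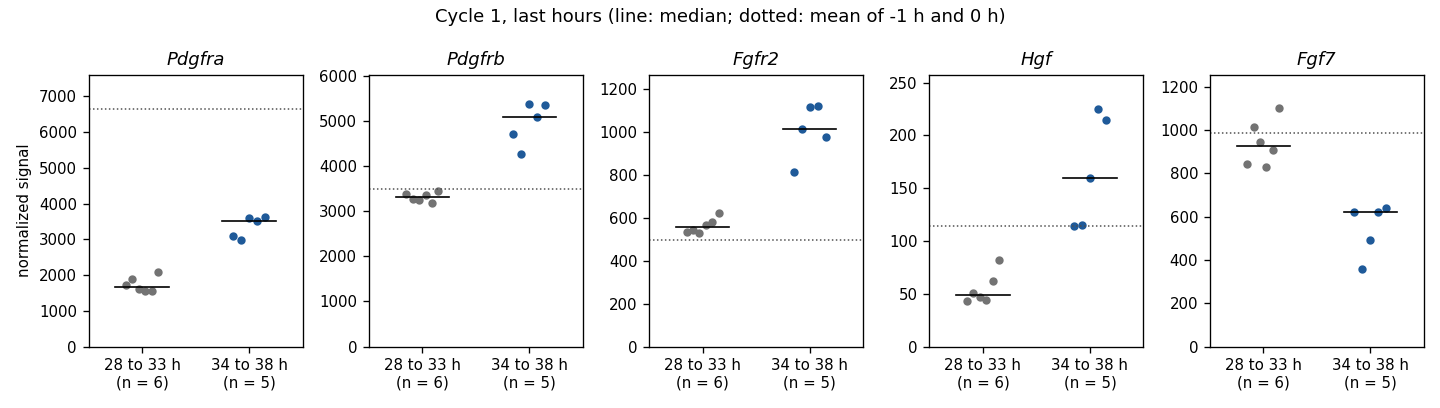
Normalized signal (y axis, linear, from 0) in the Cycle 1 libraries of 28 to 33 h (n = 6) and 34 to 38 h (n = 5), each point 1 library, bars at the medians and dotted lines at the mean of the -1 h and 0 h libraries. Pdgfra, Pdgfrb, Fgfr2 and Hgf lie higher at 34 to 38 h and Fgf7 lower, with no overlap.

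The other genes of the 3 families were read from a fixed list, of which 23 were in the table and 14 had a mean value of 10 or more. Of the 23, 16 passed the test (69.6%, against 46.3% of all genes), 3 highest and 13 lowest at their hour of largest change (against 14.0% and 32.4% of all genes). Fgf10, a mesenchymal ligand of Fgfr2, dropped from 329 and 387 in the starved libraries to 26.6 at 3 h in Cycle 1, and from 277 and 265 to 58.3 at 3 h in Cycle 2 (log2 change -2.95 ± 0.36, SE). Fgf18 was at 105 and 91.2, then at 729 at 3 h in Cycle 1, and at 93.5 and 98.1, then at 233 at 4 h in Cycle 2, before it fell to a mean log2 change of -3.08 ± 0.62 (SE) at 23 h. These courses put a fall of Fgf10 and a peak of Fgf18 into the hours when Fgfr1 was highest.

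Pdgfb, the B chain, passed as higher at 3 hours and as lower at 13, with a highest value of 131 at 1.5 h in Cycle 1 and 93.3 at 2 h in Cycle 2. Fgf21 (-4.67 at 27 h), Mst1r, the Ron receptor (-1.82 at 23 h), and Pdgfrl, a receptor-like protein (-1.19 at 26 h), fell. Fgf13 is counted as a fall (-2.21 at 7 h, on 3 reads in Cycle 2), but its late course differed between the Cycles. In Cycle 2 it was at 81.2 at 19 h, 2.68 times its starved mean, and above that mean in 17 of 30 libraries. In Cycle 1 it was above its starved mean in 2 of 61. Fgf5 (1.37 at 8 h) and Fgfr4 (2.75 at 18 h) rose, Fgfr4 from starved values of 0.954 and 1.65 in Cycle 2 and 15.0 and 12.8 in Cycle 1. Pdgfc (0.92 at 9 h), Pdgfd (-1.92 at 6 h), Fgf9 (-2.45 at 2.5 h), Fgfr3 (-0.82 at 8 h) and Fgfrl1, a receptor without kinase (-0.43 at 8 h), did not pass. Of these, Fgf9 was lower at 17 of the 29 single hours and Pdgfd at 5, although their F tests did not pass (adjusted p = 0.138 and 0.414 in limma). Among the genes with a mean under 10, Fgf14 (-4.57 at 18 h), Fgf16 (-3.57 at 24 h) and Fgf12 (-3.40 at 24 h) fell most and Fgf17 (2.29 at 1 h) rose, all on few reads.

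Partners of the receptors were read in the same way. Their counts are read against the same 46.3% of all genes called, 14.0% rising and 32.4% falling. Among 10 genes that process or trap the ligands, 3 rose and 3 fell (6 of 10 called), with Plau, the urokinase that can cleave pro-Hgf, at 2.04 ± 0.28 (SE, log2) and Plat, the tissue plasminogen activator, at -3.02 ± 0.26. Plat was lower at 12 hours and higher at 6. Furin and Fgfbp3 rose by 1.24 and 1.40, and Spint2, an inhibitor of Hgf-processing proteases, fell by 1.54. Hpn is counted as a fall (-1.84), but its mean value was 1.63, so the change rests on few reads. Among 22 heparan sulfate genes 3 rose and 7 fell (45.5% called, near the share of all genes): the core proteins Sdc4 (1.93), Sdc1 (1.65) and Gpc1 (1.24) rose, and Hs3st1 (-2.02), Sulf2 (-1.82), Hpse (-1.80) and Sulf1 (-1.59) led the falls. The list medians were 0.27 and -0.55, beside -0.88 for all genes.

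Among 22 adaptors of the receptors 36.4% were called, below the share of all genes: 1 rose, Grb14 (1.79), and 7 fell, led by Frs3 (-2.48), Pik3r1 (-2.30), Gab1 (-2.10) and Grb10 (-1.79). Among 16 genes of receptor turnover and feedback 6 rose and 2 fell (50.0% called). Flrt3, a membrane protein that binds Fgf receptors, had its largest change at 2.43 ± 0.24 (SE, log2), and Cblb, a ubiquitin ligase for receptors, at 1.82 ± 0.19. Flrt3 is counted as a rise by that change, but it was higher at 8 hours and lower at 10. Lrig3 (-2.66) and Il17rd, the Fgf inhibitor Sef (-2.42), were the 2 that fell. The list medians were -0.88 and 0.79.

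The genes whose course was most like each member's were found within each Cycle by Pearson correlation of log2 values, over 63 libraries in Cycle 1 and 32 in Cycle 2. Fgfr1 was most like Pttg1ip (r = 0.97 and 0.98), Smox and Aig1, and Met most like Socs5 (0.88 and 0.89), Homer1 and Spred1. Pdgfra was most like Abca1 (0.94 and 0.95), Igf2r and Cped1, and Pdgfrb most like Fgfr1op (0.84 and 0.87), Epb4.1l2 and Ahnak. Fgfr2 was most like Rgs4 (0.85 and 0.88), Fgf2 most like Itga2 (0.82 and 0.84), Pdgfa most like Ptk2b (0.80 and 0.91), Hgf most like Setd5 (0.80 and 0.79) and Fgf7 most like Dusp16 (0.63 and 0.68). Between members Fgfr1 and Met had r = 0.73 and 0.80, Fgfr1 and Pdgfa 0.73 and 0.17, and Fgfr1 and Fgfr2 ran opposite to each other (-0.63 and -0.61). Pdgfra and its ligand Pdgfa had r = 0.24 in Cycle 1 and -0.34 in Cycle 2, and Met and its ligand Hgf 0.10 and 0.28. Libraries of neighbouring hours are not independent, so these correlations are descriptions.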

How the data were processed

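PolyA RNA from 96 MEF libraries in 2 serum time courses was sequenced as single-end 50 bp reads. Per the labels and methods, the authors used CASAVA, aligned with STAR to mm9 and counted reads on exons of both strands with HOMER, so reads of overlapping antisense genes cannot be told apart; versions are not given in the sources used here. The deposited values are normalized signal, scaled by the authors to a common library total, with 1 row per gene symbol. Rows of genes with several transcripts look like means over transcripts. Of 96 value columns, 1 matched no sample title and was not used, which left 95 libraries. Whole reads recovered from the signal steps fitted 94.25 to 96.17% of low values within a tolerance of 0.1. Among the members, Fgf2 was at whole reads in 100% of libraries and Hgf in 70.5%. The other members were so in 2.11% (Pdgfa) to 24.2% (Pdgfra), so their recovered reads are approximate. The precision of low genes is limited by their reads, and intervals were not computed from them.

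The main test was limma 3.58.1 (R 4.3.3) on log2(value + 1), with the 4 starved libraries and both Cycles at 29 shared hours (62 libraries), Benjamini-Hochberg adjustment over 15895 genes, and a threshold of 0.05 with a log2 change beyond 1. Hour contrasts were adjusted over all genes and hours together. The Cycle term and the window by Cycle interaction (84 libraries) used the same scale. edgeR 4.0.16 on recovered reads, which are approximate for most members, was an alternative. In simulated data for the shared hours, with genes changed at 1 hour, 4 of 50 changes of 2-fold, 35 of 50 of 3-fold and 50 of 50 of 4-fold were recovered. The simulated libraries were drawn independently, with the same spread for all genes and no difference between the Cycles. Only genes with a mean of 50 reads or more were changed. These rates therefore need not hold for the real libraries or for genes on fewer reads, such as Fgf2. Replicate numbers are the Cycles, which the labels give as separate time courses, and hours of a Cycle deviated together (median correlation 0.471 over 406 pairs of hours). The labels do not say whether the Cycles came from separate embryos, and p-values of the hour fit cover the spread between these 2 courses. They take the 29 hours as independent, and also the -1 h and 0 h libraries of a course. Because hours of a course deviated together, these p-values rest on fewer independent units than the fit assumes. Those of the Cycle term and of the interaction cover the spread between hours, with 1 course per Cycle. The named genes were all members, at most 4 genes a list and direction that passed the test, all other ligands and receptors with a mean of 10 or more, and 3 most alike genes per member with a mean of 50 or more. The members and lists were chosen with earlier results of these data known.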

Additional observations from a re-analysis of the deposited data

Results flagged for a closer look

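Libraries of 1 group that lay far from the rest were looked for in 135 groups of 4 to 10 libraries (members by window and Cycle). In all, 6 were found, or 4.44%. A chance rate of about 1 in 20 assumes independent libraries at 1 level. Neighbouring hours of a changing course are not that, so the share found cannot be set against it. Pdgfra was at 1758 at 20 h in Cycle 2, above the next highest of 1257 in its window. Fgfr1 was at 1710 at 19.5 h in Cycle 1, below the next lowest of 1927. Fgfr2 was at 251 at 4 h in Cycle 1, above 158, on the way down to its lowest values. Fgf2 was at 28.9 at 33 h in Cycle 1, above 14.6, and at 35.7 at 15 h in Cycle 2, above 18.3. Fgf7 was at 599.5 at 23 h in Cycle 2, above 514. The serum response differed between the Cycles, by the test of the difference itself (window by Cycle interaction in limma, with hours of 1 course per Cycle as replicates), for Fgf7 (adjusted p = 6.37e-08), Fgfr1 (1.42e-07), Pdgfa (3.76e-06), Fgfr2 (0.0201) and Met (0.0393), against 50.0% of all genes.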

How the results depend on the processing

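Of 171 recomputed log2 changes of members, 150 kept direction and side of the threshold, and none turned. Each was read at the member's hour of largest change in the main fit, or in the window that holds that hour. The 81 Cycle differences and 9 window medians were all kept. The count of 7365 changed genes ran from 0 to 7499, and that of 48 called member hours from 0 to 68, when a starved library or a whole Cycle was left out. The zeros come from fits to 1 Cycle, which have 1 residual degree of freedom and assume that a lone library varies like the starved pair: limma called 0 genes without Cycle 1 (5494 at an unadjusted p under 0.05) and 0 without Cycle 2 (6445), no other tool was run there, and 0 member hours passed without Cycle 1. Without either Cycle the 6 members lost the call but kept their direction at the hour of largest change in the main fit. Without Cycle 2 the largest change of Fgf2 was instead -2.66, at 14 h, where Cycle 1 holds 2 reads. In time windows of Cycle 1 alone Fgf7 passed (-1.21, adjusted p = 1.74e-08 in limma). In time windows of Cycle 2 alone Fgfr2 (-0.68 at 4 to 6.5 h) and Pdgfa (0.98) fell short of the required size. The largest change of Fgfr2 in that fit was above the starved level, 0.74 at 15 to 18.5 h, and also fell short. Hgf passed with the Cycle as replicate block (limma, adjusted p = 0.000675) and with time windows as groups (1.13e-07). It also passed in windows of Cycle 1 alone (limma, -2.04 at 24 to 27 h, adjusted p = 1.05e-10). The same held in windows of Cycle 2 alone (limma, -1.23 at 19 to 23.5 h, adjusted p = 0.000522). The window fits take neighbouring hours as replicates. The block changed no other member's call and gave 8352 changed genes. TMM rescaling moved the median of all genes by up to 0.30 log2, at 2.5 h, and gave 2.04 for Fgfr1, 1.88 for Met, -1.15 for Fgfr2 and -2.21 for Pdgfra, the same directions. Of the genes called, 30.17% were rises in the main fit and 40.05% under TMM. The background shares of rising and falling genes given above therefore depend on the scaling. Under TMM the interaction of Met had an adjusted p of 0.0630 in limma. The -1 h baseline and leaving out the 27 h hour were added after the data were seen, and gave 6966 and 7347 changed genes. edgeR on recovered reads gave 7260. Depth limits Fgf2 and Hgf most, at 2 to 75 reads and 10 to 231 reads a library.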
